A study of Mus musculus with 5 samples.

Results

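Chromatin that was listed as open in blood progenitors and macrophages, but in none of the 3 earlier populations analysed here, made up 409 of 68846 merged regions, or 0.594%. The members were selected on the site lists themselves, so their presence in 2 stages and absence from 3 is a description and was not tested. The 500 bp at the middle of each deposited site stood for the site, and such windows were chained into 1 merged region, whatever their stage, where they shared at least 25% of their length. A region was kept if it held windows of hematopoietic progenitors (HP) and macrophages (MAC) and none of mesoderm (MES), hemangioblast (HB) or hemogenic endothelium (HE). All 409 held exactly 1 HP and 1 MAC window.

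The lists came from DNaseI-seq, in which the nuclease DNase I cuts accessible chromatin and the cut places are called as DNaseI hypersensitive sites (DHSs). All populations were derived in culture from 1 mouse embryonic stem cell line of strain 129 with a Brachyury (Bry) GFP reporter, maintained on embryonic fibroblasts. They were sorted as MES (Bry:GFP+, Flk1-), HB (Bry:GFP+, Flk1+), HE (Tie2+, cKit+, CD41-, labelled Bry.GFP+ as well), HP (CD41+) and MAC (CD11b+ cells grown out of CD41+ cells). ES cells were not among the lists used here, so that a statement about earlier stages covers MES, HB and HE alone. There was 1 list per stage (n = 1), so no replicate error can be given. The MAC label names 2 replicates, whose relation to the single list is not given. The 95% intervals below are Wilson intervals (Newcombe intervals for differences), which treat regions as independent and cover counting error only.

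Distal regulatory elements become hypersensitive when transcription factors displace nucleosomes, and the set of open elements differs between cell types. RUNX1 is required for the formation of blood cells from hemogenic endothelium, GATA factors act in progenitors and in erythroid and megakaryocytic cells, and PU.1 and C/EBP factors act in myeloid cells. AP-1 factors (Fos and Jun dimers) respond to signalling in many cell types.

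The lists matched their labels at the sorting markers to differing degrees. Sites within 1 kb of a transcription start site (TSS) were listed in HP for all 4 progenitor genes checked (Itga2b, which encodes CD41, Kit, Runx1 and Spi1, which encodes PU.1). HE, though sorted as CD41-, also had sites at all 4, while MES and HB had 2 (Kit and Runx1). They were listed in MAC for all 6 macrophage genes (Itgam, which encodes CD11b, Csf1r, Adgre1, Cd68, Fcgr1 and Lyz2), of which HP had 1 (Cd68). Of 4 endothelial genes HP had 2 (Kdr and Sox17) and MAC 1 (Kdr). Of 3 erythroid genes HP had 3 and MAC 2, and of 3 megakaryocytic genes each had 1 (Pf4). Of the mesodermal genes T and Mesp1 neither list had any. The lists held from 17734 (HP) to 37456 (MAC) sites, 135173 in all, with no read counts, so that depth is unknown and an unlisted site is not shown to be closed.

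Sequences of 6 members are shown for the words they hold. They were picked for these words and are not typical of the members, of which 28.6% held none of the PU.1, RUNX, C/EBP, AP-1 and GATA words. They are 6 of the 7 among 12 selected members (the selection is given under processing) whose central 200 bp held a PU.1, RUNX or C/EBP word. They are on the plus strand of GRCm38.p6 from 5′ to 3′, and are the reference sequence, not that of the strain 129 cells. Capitals mark words on either strand. The RUNX word is TGTGGTC, or with another last base TGTGGTT. The GATA word is AGATAA, the AP-1 word TGAGTCA, the IRF word GAAANNGAA and the PU.1 word GAGGAAGT. The C/EBP words are TTGCGCAA, TTGCACAA, TTGCATAA and TTGCAACA.
Itgb3, chr11:104614215-104614414: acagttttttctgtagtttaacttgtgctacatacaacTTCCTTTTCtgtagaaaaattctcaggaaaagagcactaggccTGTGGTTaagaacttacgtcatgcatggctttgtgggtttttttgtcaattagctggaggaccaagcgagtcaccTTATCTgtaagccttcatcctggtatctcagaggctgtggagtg
Ets2, chr16:95827509-95827708: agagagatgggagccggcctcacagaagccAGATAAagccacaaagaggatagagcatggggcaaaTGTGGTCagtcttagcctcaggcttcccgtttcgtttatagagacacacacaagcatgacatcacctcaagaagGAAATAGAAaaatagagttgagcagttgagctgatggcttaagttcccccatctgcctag
Tgfbr1, chr4:47293861-47294060: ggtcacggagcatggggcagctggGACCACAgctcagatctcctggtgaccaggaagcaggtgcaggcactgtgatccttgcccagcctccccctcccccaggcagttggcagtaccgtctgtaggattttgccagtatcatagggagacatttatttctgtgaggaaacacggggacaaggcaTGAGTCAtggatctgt
Runx1, chr16:92710434-92710633: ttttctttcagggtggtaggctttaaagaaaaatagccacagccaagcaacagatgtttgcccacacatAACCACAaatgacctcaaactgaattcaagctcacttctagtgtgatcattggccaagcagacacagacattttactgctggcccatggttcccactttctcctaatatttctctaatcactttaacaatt
Plcg2, chr8:117482009-117482208: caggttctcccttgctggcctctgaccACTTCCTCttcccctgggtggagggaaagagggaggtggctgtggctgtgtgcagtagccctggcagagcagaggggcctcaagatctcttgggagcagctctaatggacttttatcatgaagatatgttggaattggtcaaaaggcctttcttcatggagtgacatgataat
Runx2, chr17:44709965-44710164: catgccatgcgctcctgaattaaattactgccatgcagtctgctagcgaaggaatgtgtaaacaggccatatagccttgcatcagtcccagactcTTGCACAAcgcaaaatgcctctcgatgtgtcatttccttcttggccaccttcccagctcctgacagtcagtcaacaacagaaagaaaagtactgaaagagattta

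The region in an intron of Itgb3, the platelet and macrophage integrin beta 3, held 1 RUNX, 1 GATA and 1 IRF word, with the RUNX word 16 bp from the centre. The region 125202 bp downstream of the TSS of Ets2, an ETS family factor, held the same 3 kinds of word. In the region nearest to Tgfbr1, a TGF-beta receptor, RUNX and AP-1 words lay on either side of the centre, at 72 and 88 bp. The Plcg2 member held a PU.1 word, the Runx2 member a C/EBP word 1 bp from its centre, and the Runx1 member a RUNX word. No earlier interval touched any of the 6 members.

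Within the progenitor list the members were a small share. They were 2.31% of the 17734 merged regions with an HP window and 1.09% of the 37444 with a MAC window. Of the 11738 regions with both, members were 3.48% (95% interval 3.17 to 3.83). Most of the others, 9067 (77.2%), were listed in all 5 stages, and 1044 (8.89%) were listed in HE, HP and MAC. Seen from HP, 1968 regions had no MES, HB or HE window, and of these 409 (20.8%, 19.0 to 22.6) were also listed in MAC. Of the 15766 HP regions that had at least 1 earlier window, 11329 (71.9%, 71.1 to 72.6) were listed in MAC. Both shares are a description of the lists that chose the members.

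The member sites were narrow for HP and near the middle of the range for MAC. The HP sites ranged from 200 to 1500 bp with a median of 500 bp (quartiles 400 and 700), where all HP sites had a median of 900 bp. The MAC sites ranged from 100 to 2200 bp with a median of 500 bp (400 and 800), where all MAC sites had a median of 600 bp. The 1559 regions of HP alone and the 21375 of MAC alone also had a median width of 500 bp. In the 1044 regions of HE, HP and MAC the HP and MAC sites both had a median of 700 bp and the HE sites of 1300 bp. Within members neither list was regularly the wider, since the MAC site was wider in 195, the HP site in 170, and both were equal in 44.

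**Figure D1:**
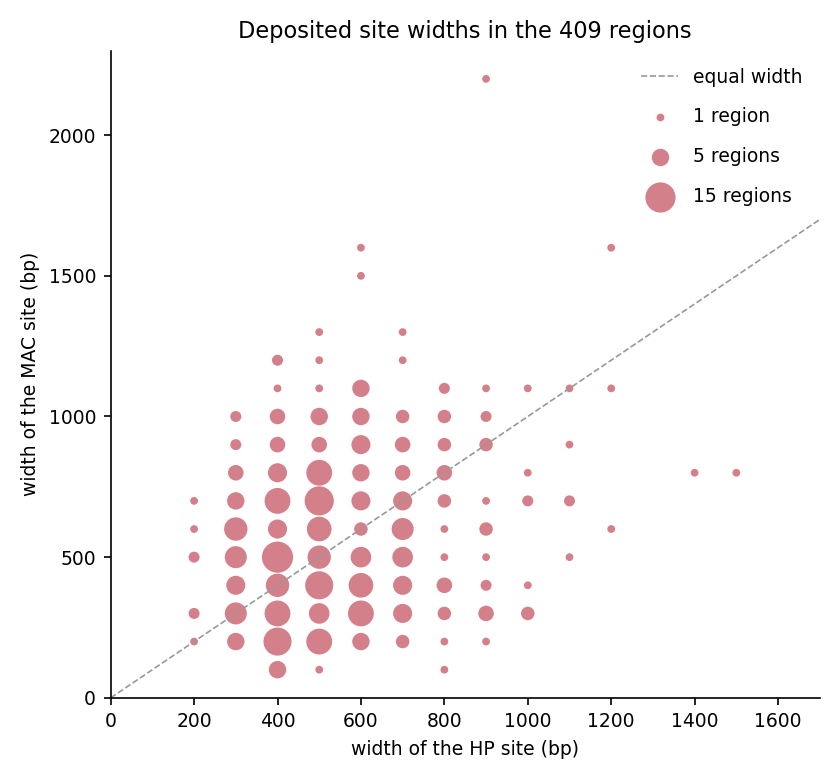
Width of the deposited HP site (horizontal, bp) against that of the MAC site (vertical, bp) in each of the 409 members, with the area of a point for the number of members at that pair of widths and a dashed line for equal widths. Most points lie below 1000 bp on both axes, on either side of the line (195 above it, 170 below it).

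The HP and MAC sites of a member lay close together, as the rule requires, since it allows their middles to be at most 375 bp apart. The middles lay a median of 79 bp apart (quartiles 42 and 133, at most 367). The deposited intervals shared a median of 400 bp and at the least 1 bp. The narrower lay wholly within the wider in 244 members, and in 8 less than 50% of it was shared. The windows overlapped by a median of 421 bp, and by 400 bp or more in 255 members. Just inside the threshold, 8 members overlapped by less than 50 bp more than it asks, the least by 133 bp in all. Just outside it, 11 pairs of an HP-only and a MAC-only region overlapped by 8 to 120 bp.

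Most members, but not all, were also free of the deposited intervals of the earlier stages. A deposited MES, HB or HE interval reached into 81 members (19.8%, 16.2 to 23.9) although the middle of its window lay too far off to join. An HE interval did so in 78, an HB interval in 27 and a MES interval in 23. In 53 members it was HE alone, and in 20 it was all 3 stages. In 46 members an earlier interval covered the whole region. HE sites were the widest of the 5 lists, with a median of 1200 bp, and the part of width in these overlaps was not tested. The nearest earlier window lay a median of 4955 bp away, within 1 kb in 96 members, over 10 kb in 132 and over 50 kb in 17. The earlier windows that fell just short of joining, by overlaps of up to 120 bp, belonged to 36 members (29 with an HE, 10 with an HB and 8 with a MES window).

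The touched members were concentrated at promoters. Of 54 members within 2 kb of a TSS, 35 (64.8%, 51.5 to 76.2) were touched by an earlier interval. Of 154 members between 2 and 20 kb 19 were touched (12.3%, 8.04 to 18.5), and of 201 members beyond 20 kb 27 (13.4%, 9.4 to 18.8). The share was 14.3% (12.7 to 16.1) in HP-only and 4.5% (4.23 to 4.78) in MAC-only regions. Values of the 328 members that no earlier interval touched are given beside several of the results below.

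**Figure D2:**
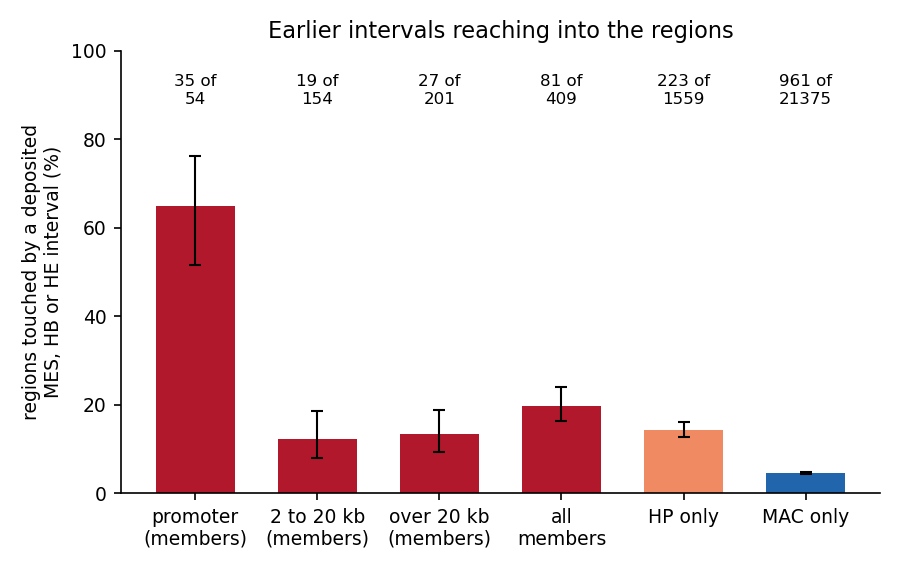
Share of regions (%) that a deposited MES, HB or HE interval touched by 1 bp or more, for members by distance to a TSS, for all members, and for regions of HP only and MAC only, with 95% Wilson intervals and the counts above. Promoter members reach 64.8% and the other members 12.3% and 13.4%.

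Members lay mostly away from promoters, in introns and between genes. By the centre, 201 (49.1%, 44.3 to 54.0) were over 20 kb from a protein-coding TSS, 154 (37.7%) at 2 to 20 kb, and 54 (13.2%, 10.3 to 16.8) within 2 kb. The median distance was 19130 bp. Introns held 206 centres (50.4%), intergenic DNA 183 (44.7%), untranslated exons 14 (3.42%) and coding exons 6 (1.47%). The promoter share was 11.8% (10.3 to 13.5) in HP only, 6.51% (6.18 to 6.85) in MAC only, 9.58% (7.94 to 11.5) in HE, HP and MAC and 24.0% over all regions. With touched regions left out of each class it was 5.79% (3.74 to 8.87) in members, 7.28% (6.01 to 8.8) in HP only and 4.9% (4.62 to 5.21) in MAC only, and the members' interval overlapped both.

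Base composition followed the same split. CpG-rich sequence, as in CpG island promoters (GC share of at least 0.5 and observed to expected CpG of at least 0.6), was found in 27 members (6.6%, 4.58 to 9.43). It was found in 3.99% of HP-only, 0.884% of MAC-only, 2.59% of HE, HP and MAC and 18.2% of all regions. Of the 27, 23 were promoter members and 21 were touched by an earlier interval. Among the 328 untouched members 1.83% (0.841 to 3.93) were CpG-rich, beside 1.58% (1.03 to 2.4) of untouched HP-only and 0.314% (0.246 to 0.4) of untouched MAC-only regions. The median GC content of members was 49.4%, beside 49.0% in HP only, 46.4% in MAC only and 50.0% in HE, HP and MAC.

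The 10 members nearest to a TSS, all within 27 bp of it, were at promoters of Gpr146, Msn, Lrrc39, Erf, Hcn3, Smyd2, Meis1, Taf11, Ints6l and Dnajc8. Of these 9 were touched by an earlier interval, 7 were CpG-rich, and all 10 lacked the PU.1, RUNX, C/EBP, AP-1 and GATA words. At Hcn3, which encodes a pacemaker ion channel, the HP site was 600 bp and the MAC site 400 bp wide, and MES, HB and HE intervals covered 506, 565 and 548 bp of the region (chr3:89159880-89160465). At Taf11, a subunit of the general factor TFIID, intervals of all 3 earlier stages covered the whole region of 554 bp. At Msn, which encodes the membrane-cytoskeleton linker moesin, HP and MAC sites of 600 and 700 bp lay at 9 bp upstream of the TSS, the nearest MES and HB windows were over 100 kb away, and an HE interval reached over 523 bp. Only the member at Lrrc39 (HP 800 bp, MAC 400 bp) was free of earlier intervals, with the nearest window 31429 bp away. Most of these start sites were therefore covered by an earlier site with another middle.

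Words of blood transcription factors were common in members, and which words were common set members apart from HP-only and MAC-only regions in different ways. The rule did not use sequence, but the words were chosen with earlier results of these data known. The central 500 bp of 409 members held a RUNX word in 147 (35.9%, 31.4 to 40.7), beside 19.9% of all merged regions. An AP-1 word stood in 121 (29.6%, 25.4 to 34.2), beside 17.9% of all regions. A GATA word stood in 102 (24.9%, 21.0 to 29.4), beside 23.0% of all. A PU.1 word stood in 46 (11.2%, 8.54 to 14.7), beside 8.25% of all, and a C/EBP word in 29 (7.09%, 4.98 to 10.0), beside 5.53% of all. The share over all regions includes the members and rests on regions with more promoters. The GATA and C/EBP shares were within counting error of it, and so was the PU.1 share over 2 kb from a TSS, 11.5% (8.63 to 15.3) against 9.47% of all regions there. No member word is shown to be a bound site.

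**Figure D3:**
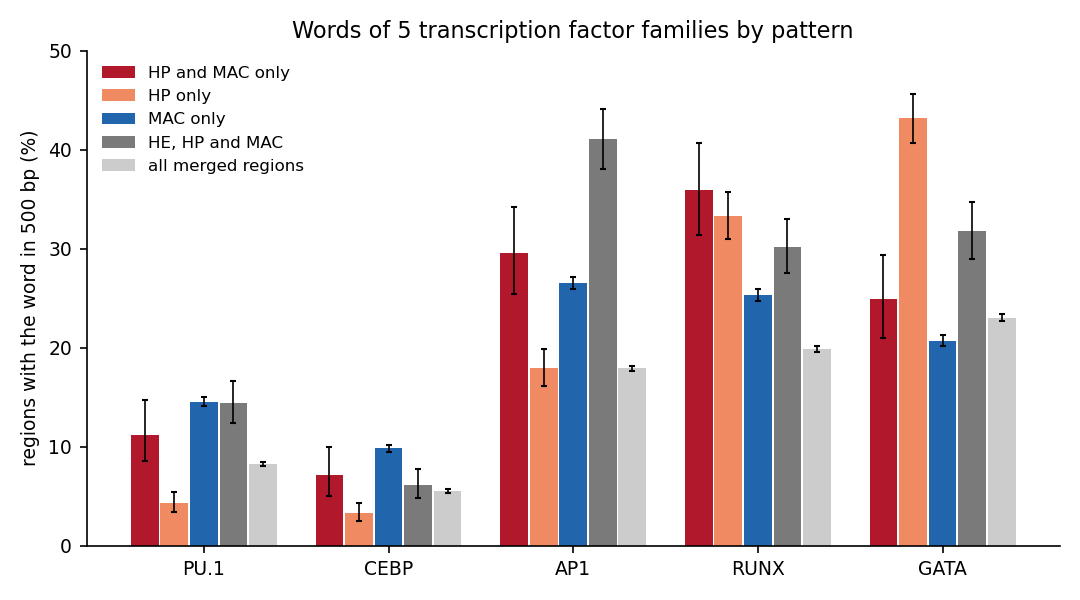
Share of regions (%) with each word in the central 500 bp, on either strand, for members, regions of HP only, MAC only, and HE, HP and MAC, and all merged regions, with 95% Wilson intervals. For PU.1, C/EBP and AP-1 the members stand above HP only, for RUNX above MAC only, and for GATA far below HP only.

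Against HP-only regions, members held more words of the myeloid factors and fewer of GATA. The PU.1 share was 11.2% against 4.31%, a difference of 6.94 percentage points (4.0 to 10.5). The C/EBP share was 7.09% against 3.28% (3.81 points, 1.47 to 6.82), and the AP-1 share 29.6% against 17.9% (11.7 points, 7.05 to 16.7). The GATA share was 24.9% against 43.2%, which was 18.2 points less (interval of members minus HP only, -22.9 to -13.2). The RUNX share of 35.9% was not separated from the 33.3% of HP-only regions (2.63 points, -2.46 to 7.92), but it was once touched regions were left out of both classes (41.5% against 34.4%, 7.08 points, 1.27 to 13.0). The median GC content of both classes is given above, and their median distances to a TSS were 19130 and 19500 bp.

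Against MAC-only regions, RUNX and GATA words were the ones separated. Members held more RUNX words, 35.9% against 25.3% (10.6 points, 6.09 to 15.4). They held slightly more GATA words, 24.9% against 20.7% (4.23 points, 0.248 to 8.68). The PU.1 shares of 11.2% and 14.5% (-3.29 points, -6.04 to 0.172), the C/EBP shares of 7.09% and 9.82% (-2.72 points, -4.87 to 0.209) and the AP-1 shares of 29.6% and 26.5% (3.08 points, -1.18 to 7.71) were not separated by their intervals. Over 2 kb from a TSS the AP-1 difference was 4.74 points with an interval just above 0 (0.0738 to 9.8). Intervals that hold 0 do not show that the shares were equal.

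Regions already listed in HE, and then in HP and MAC, held more AP-1 words than members, 41.1% against 29.6% (members minus HE, HP and MAC -11.5 points, -16.7 to -6.05). They also held more GATA words, 31.8% against 24.9% (-6.86 points, -11.8 to -1.66), and fewer RUNX words, 30.2% against 35.9% (5.77 points, 0.441 to 11.2). PU.1 (14.4%) and C/EBP (6.13%) were not separated. In all, 9 of these 15 differences had an interval that left out 0, with no adjustment over the 15. Over 2 kb from a TSS, where the members' shares were 38.9% for RUNX, 31.8% for AP-1, 26.8% for GATA, 11.5% for PU.1 and 7.32% for C/EBP, the same held for 10 of 15, the added one being AP-1 against MAC only.

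Spelling each word backwards keeps its base composition and gives a level for such a composition. In members the backward words stood in 15.2% (RUNX), 8.56% (AP-1), 18.3% (GATA), 5.87% (PU.1) and 1.96% (C/EBP). Each was below the share of the true word. For RUNX the backward share was alike elsewhere, 16.8% in HP only and 17.3% in MAC only. The PU.1 backward share was higher in members (5.87%) than in HP-only (2.83%) or MAC-only (3.51%) regions, and the C/EBP backward share was higher too (1.96%, beside 0.772% and 1.08%). The backward words thus moved in the same direction as the PU.1 and C/EBP words against HP only, and their part in those differences was not tested. For AP-1 the backward share was 8.56% in members and 8.55% in HP only, and for GATA 18.3% and 16.1%. In HE, HP and MAC the AP-1 backward share was 12.1% and in MAC only 11.1%, both above the members' share. The GATA backward share was 16.7% in HE, HP and MAC and 22.2% in MAC only, where it was above the 20.7% of the true word. The part of these levels in the AP-1 and GATA differences was not tested. In the 328 untouched members the RUNX share was 41.5% (36.3 to 46.9), beside the untouched HP-only regions given above and against 25.6% of the untouched MAC-only regions (15.9 points, 10.6 to 21.3).

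The other 20 words searched were compared in the same way with HP only, with MAC only and with HE, HP and MAC. The interval of the difference left out 0 in 12 of these 60 comparisons, with no correction for their number, and in 7 of the 12 it did so with the same sign over 2 kb from a TSS. Against MAC only these were SP (members 4.89%, MAC only 1.61%), EGR (4 members, 0.978%, against 0.285%) and CTCF (45 members, against 6.0%), all higher in members, and the nuclear receptor word DR1, which was lower (2.44% against 5.15%). Over 2 kb from a TSS members and MAC only had 3.1% and 1.32% for SP, 10.1% and 5.78% for CTCF and 2.82% and 5.2% for DR1, and the intervals again left out 0. For EGR 2 members were left there (0.563%, against 0.14%). The shares of all merged regions were 7.96% (SP), 2.55% (EGR) and 11.9% (CTCF), so none of these 3 words was raised in members against all regions. The SP interval of members (3.19 to 7.43) lay below that of all regions (7.76 to 8.16), and the EGR and CTCF intervals overlapped. All regions over 2 kb from a TSS had 3.3% (SP), 0.676% (EGR) and 9.63% (CTCF), each within the members' interval there. Against HP only the IRF word was higher in members by 5.0 points (1.19 to 9.28; 17.6% and 12.6%), but 16.4% of members held it backwards. The MITF-TFE E-box was higher by 3.7 points (0.749 to 7.24) and OCT by 1.45 points (0.00891 to 3.63), while TEAD (13.4% against 18.4%) and DR1 (2.44% against 5.08%) were lower. Of these 5 only TEAD kept an interval without 0 over 2 kb from a TSS (14.1% against 19.0%). Over all regions the shares were 14.5% (IRF), 9.34% (MITF-TFE), 2.45% (OCT) and 14.7% (TEAD), and the intervals of members and all regions overlapped. Members held backward words in 9.29% (MITF-TFE), 7.09% (TEAD), 0.0% (OCT), 0.978% (EGR) and 3.18% (DR1, ETS and CTCF alike). The SP word reads the same backwards, so it has no such level. Against HE, HP and MAC the ETS word (4.4% against 9.0%, beside 5.58% of all regions) and DR1 (2.44% against 6.23%) were lower in members, over 2 kb from a TSS too. SP was higher (4.89% against 2.2%), but over 2 kb from a TSS it was 3.1% against 1.59% with an interval of the difference that held 0. In some other comparisons the interval left out 0 only over 2 kb from a TSS. Members were higher there for ETS-IRF and STAT against HP only and for STAT, KLF and TEAD (14.1% against 10.7%) against MAC only. They were lower there for SOX against HE, HP and MAC.

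The words lay toward the centre of members. Of 161 AP-1 words 68.9% were within 100 bp of the centre, of 189 RUNX words 61.4%, of 51 PU.1 words 62.7% and of 33 C/EBP words 60.6%. In MAC-only regions the figures were 64.8% (AP-1), 49.6% (RUNX), 68.1% (PU.1) and 60.7% (C/EBP), and in HP-only regions 54.7%, 56.2%, 50.0% and 37.3%. GATA words were less central in members, with 47.9% of 119 within 100 bp, beside 54.5% in HP only and 33.0% in MAC only, where they were denser at the edges. The MAC sites lie in the middle of MAC-only windows and a member's centre lies between its 2 sites, so the centres are not defined by the same number of lists.

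**Figure D4:**
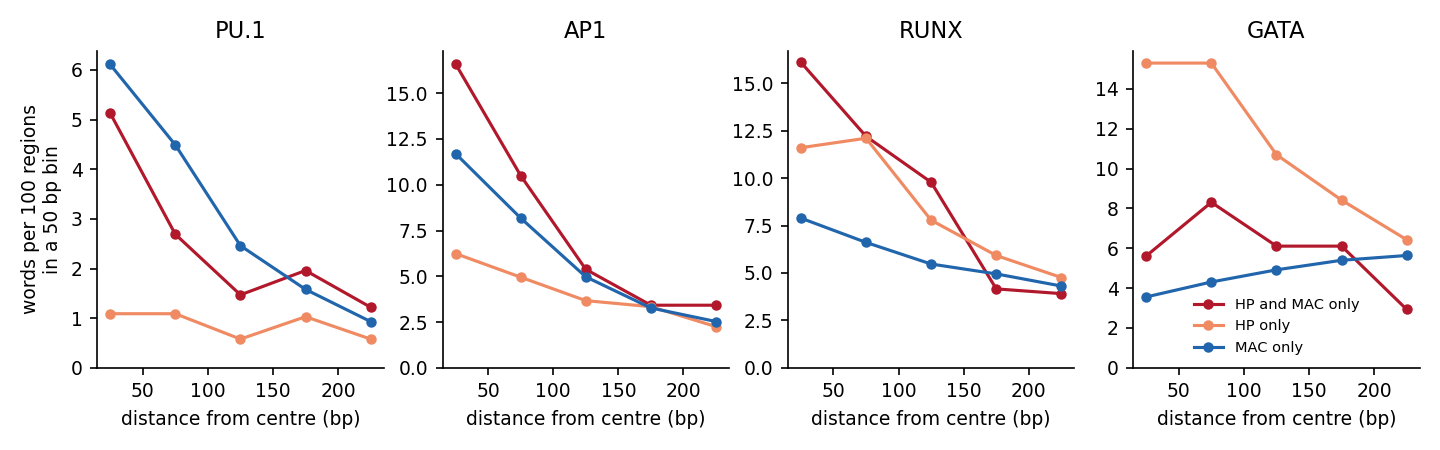
Words per 100 regions (vertical) in 50 bp bins of distance from the region centre in bp (horizontal) for members, HP-only and MAC-only regions, with a separate vertical scale for each of PU.1, AP-1, RUNX and GATA. RUNX and AP-1 words are densest in the innermost bin of members (66 and 68 words), whereas GATA words are not (23 words, beside 34 in the next bin).

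Some pairs of words stood in the same member more often than over all merged regions. For C/EBP with RUNX, AP-1 or GATA, and for AP-1 with GATA, the intervals of members and all regions overlapped. PU.1 and RUNX words occurred together in 22 members (5.38%, 3.58 to 8.01), beside 1.41% (0.936 to 2.13) of HP-only, 3.63% (3.39 to 3.89) of MAC-only, 3.74% of HE, HP and MAC and 1.85% of all regions. The interval lay above that of HP only and overlapped that of MAC only. RUNX and AP-1 words occurred together in 43 members (10.5%, 7.9 to 13.9), beside 5.72% of HP-only, 6.32% of MAC-only, 12.6% of HE, HP and MAC and 3.95% of all regions. RUNX and GATA words occurred together in 39 (9.54%, 7.05 to 12.8), below the 16.3% of HP only and above the 5.36% of MAC only and the 5.22% of all. The product of the members' single shares was 4.04% for PU.1 and RUNX, 10.6% for RUNX and AP-1 and 8.96% for RUNX and GATA, each within the interval of the observed pair, as it was for the other 7 pairs of the 5 words, so these pairs add no result beyond the single words. At least 3 of the 5 kinds stood in 32 members (7.82%), beside 4.31% of HP-only, 4.43% of MAC-only, 7.95% (6.46 to 9.75) of HE, HP and MAC and 2.72% of all regions. There were 37 members (9.05%, 6.63 to 12.2) with 2 or more RUNX words, beside 7.2% (6.02 to 8.6) of HP only, 5.17% (3.99 to 6.69) of HE, HP and MAC, 3.48% of MAC only and 2.46% of all. None of the 5 was found in 117 members (28.6%, 24.4 to 33.2), beside 29.8% of HP-only, 32.1% of MAC-only, 20.8% of HE, HP and MAC and 45.3% of all regions.

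All 22 members with both a PU.1 and a RUNX word were free of earlier intervals, as were 328 of all 409 members. In 11 of the 22 the words lay within 50 bp of each other. Such close pairs were not counted in the other classes, so this spacing is not shown to be particular to members. The 3 with the shortest gap, chosen after the words were counted from members on chromosomes other than 18 and outside untranslated exons, are shown as 100 bp of the plus strand of GRCm38.p6, 5′ to 3′, with PU.1 and RUNX words of either strand in capitals.
Wwc2, chr8:47917840-47917939: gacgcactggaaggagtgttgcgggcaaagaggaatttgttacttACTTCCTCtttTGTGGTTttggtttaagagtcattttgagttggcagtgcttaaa
Ttc7b, chr12:100505562-100505661: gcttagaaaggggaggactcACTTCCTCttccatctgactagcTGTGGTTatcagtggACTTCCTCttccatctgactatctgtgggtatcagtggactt
Spp1, chr5:104434940-104435039: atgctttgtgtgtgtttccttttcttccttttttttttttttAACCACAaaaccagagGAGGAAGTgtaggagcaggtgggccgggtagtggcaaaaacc

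In the intron of Wwc2, a regulator of Hippo signalling, 3 bases separate the words, the HP site was 500 bp and the MAC site 900 bp wide. In the intron of Ttc7b, which encodes a scaffold of a lipid kinase complex, 8 bases separate the nearer pair and a further PU.1 word stands before it, and the widths were 400 and 500 bp. At Spp1, which encodes the secreted phosphoprotein osteopontin, the member was a promoter, centred 142 bp upstream of the TSS, with 9 bases between the words, an HP site of 800 bp and a MAC site of 200 bp. The nearest earlier window was 24230 bp from it, and Spp1 had 4 MAC-only regions. The promoter of Spp1 was therefore listed in HP and MAC and not in MES, HB or HE.

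Members were spread over many genes. They were nearest to 390 of 21000 protein-coding genes (1.86%), with 1 member at 373 genes, 2 at 15 genes (Ampd3, Arhgap10, Bcas1, Cyria, Hivep1, Ier5, Iqgap1, Ltbp1, Ndufa13, Panx1, Pik3r1, Pitpnc1, Tmc1 and Ywhaz among them) and 3 at Runx1 and Chst11. The lists of blood and other genes counted below held 381 genes, of which 27 (7.09%) were nearest to a member. They account for 29 members, 23 of them touched by no earlier interval, with 4 in a promoter, 14 at 2 to 20 kb and 11 beyond. The nearest gene is an assignment by distance and not a shown target.

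Transcription factors of progenitors had the largest share of any list, 7 of 33 genes (21.2%, 10.7 to 37.8), beside the 1.86% of all genes. They were Runx1, Runx2, Lyl1, Meis1, Zfpm1, Foxo1 and Nfatc1. Of the same 33 genes 81.8% were nearest to a MAC-only region (40.2% of all genes), 27.3% to an HP-only region (6.52%) and 18.2% to a region of HE, HP and MAC (4.4%), so they had more regions of each kind. Of 33 myeloid transcription factors 2 had a member (6.06%, 1.68 to 19.6), Cebpb and Bach1. The intervals of these lists overlap.

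Runx1, the master regulator of the step from endothelium to blood, was nearest to 51 merged regions, of which 24 were MAC only, 2 HP only and 3 members. The member in an intron between its distal and proximal promoters (chr16:92710210-92710857), whose sequence is printed above, lay 13205 bp upstream of the nearest TSS, with an HP site of 600 bp and a MAC site of 400 bp. A second member (chr16:92609110-92609757) lay in an intron 87895 bp downstream of that promoter, with sites of 400 and 200 bp. The third (chr16:92867258-92867809) was intergenic, 41460 bp upstream of the distal promoter, with sites of 400 and 1000 bp. Earlier windows were at least 9889, 4689 and 10911 bp away from them, in the order intergenic, printed and downstream. The 3 members therefore lay at separate places around the gene.

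At Lyl1, a basic helix-loop-helix factor related to Tal1, the member (chr8:84699776-84700442) was centred 1348 bp upstream of the TSS with sites of 700 and 600 bp, and an HE interval covered all 667 bp of it. Meis1, a homeodomain partner of HOX proteins, had its member 21 bp upstream of the TSS (chr11:19018714-19019266, sites of 400 and 500 bp), also covered by an HE interval. The same was the case for most of the Zfpm1 member (581 bp), where Zfpm1 encodes the GATA cofactor FOG-1, and for 514 bp of the member 69914 bp upstream of Foxo1, a forkhead factor. In contrast, no earlier interval touched the members of Runx2 (sites of 600 and 500 bp, intron) and of Nfatc1 (500 and 200 bp, promoter). The progenitor factors thus included 4 genes whose member an HE site reached.

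At Cebpb, which encodes a C/EBP factor of macrophages, the member (chr2:167753875-167754419) lay 65232 bp downstream of the TSS, between genes. Its HP site was 500 bp and its MAC site 1200 bp wide, its central 500 bp held 1 RUNX and 1 C/EBP word, and the nearest earlier window was 10650 bp away. Of the 20 merged regions nearest to Cebpb 12 were MAC only. At Bach1, a heme-sensitive repressor, the member was intronic (chr16:87712958-87713559, sites of 500 and 200 bp) with 1 AP-1 word. Bach1 had 11 MAC-only and 2 HP-only regions.

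**Figure D5:**
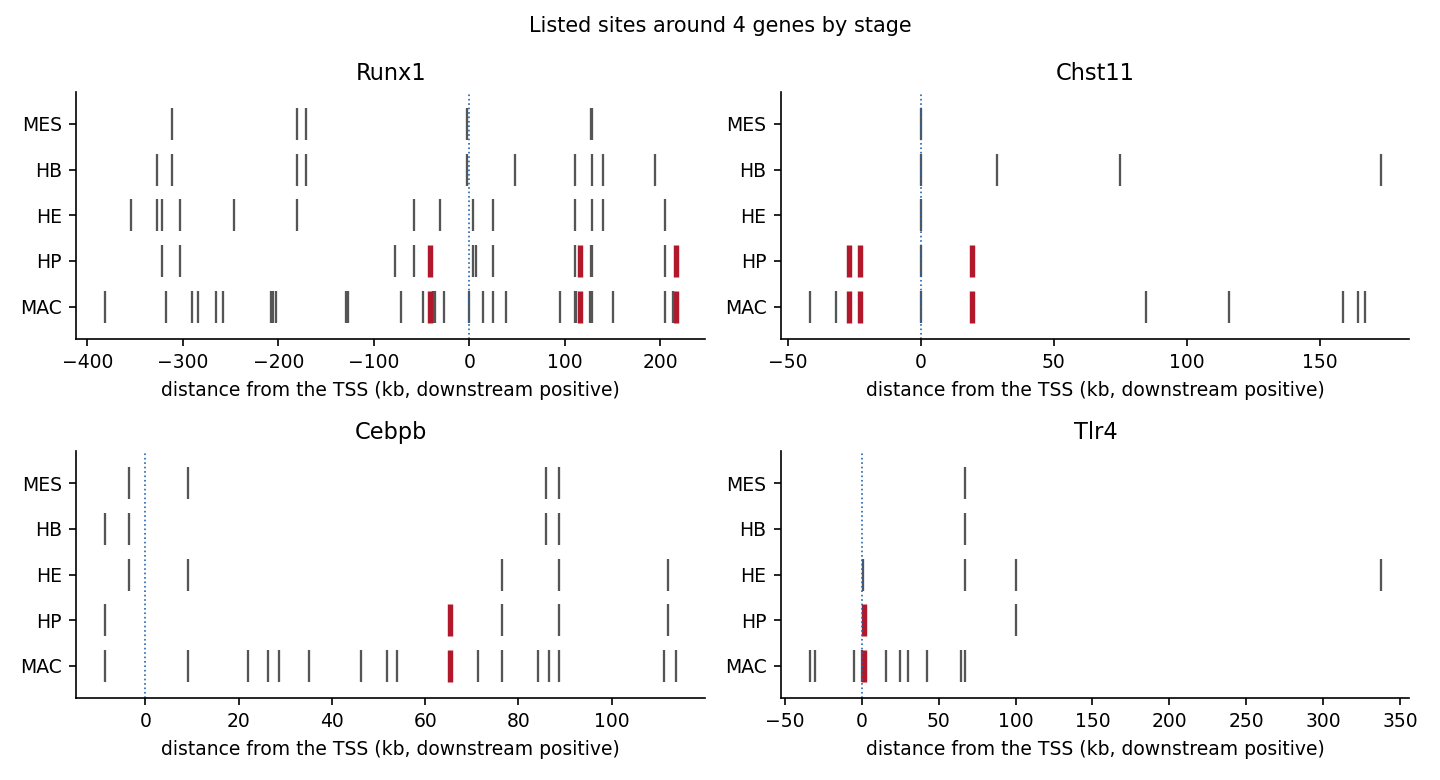
Merged regions around 4 genes by distance of the region centre from the outermost annotated TSS (horizontal, kb, downstream positive, a scale for each gene), with a tick in the row of each stage that lists the region and thick red ticks for members. Runx1 and Chst11 have 3 members each, whereas Cebpb and Tlr4 have 1 each among MAC-only regions (12 and 9).

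Signalling genes of myeloid cells had members at 7 of 49 (14.3%, 7.1 to 26.7), beside 1.86% of all genes. A region of HE, HP and MAC was nearest to 24.5% of them (4.4% of all genes) and a MAC-only region to 100.0% (40.2%). They were Plcg2 (phospholipase C gamma 2), Rac2 (a small GTPase of blood cells), Arhgap25 (a GTPase-activating protein for Rac), Fyb (an adhesion adaptor), Prkcd (protein kinase C delta), Rgs2 (a regulator of G protein signalling) and Sla (the Src-like adaptor). The Arhgap25 member (chr6:87541500-87542106), 8544 bp upstream of the TSS, was among the widest in both lists with 1200 bp in HP and 1600 bp in MAC, and the nearest earlier window was 40652 bp away. It held none of the 5 words. The Prkcd member held 2 PU.1 words (sites of 700 and 800 bp, intron, chr14:30620040-30620678). The Plcg2 member, 16166 bp upstream of the TSS, had sites of 600 and 700 bp. An HE interval covered the Rac2 member (561 bp), and the other 6 were free of earlier intervals.

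Receptors for cytokines had members at 4 of 37 genes (10.8%, 4.29 to 24.7), beside 1.86% of all genes. The share with a region of HE, HP and MAC was also 10.8% (4.4% of all genes), and that with a MAC-only region 91.9% (40.2%). Il10ra, a chain of the interleukin 10 receptor, had a member 5391 bp upstream of the TSS (chr9:45274130-45274950) with sites of 900 and 1000 bp and 3 RUNX words. Il1rl1, the receptor of interleukin 33, had one in an intron (chr1:40444615-40445158, sites of 500 and 700 bp), with the nearest earlier window 65324 bp away. Tgfbr1 (900 and 700 bp) and Tnfrsf1b, a receptor of tumor necrosis factor (400 and 500 bp), had intronic centres too. For Tgfbr1 the centre was 59261 bp upstream of its TSS and in an intron of another annotated transcript. All 4 were free of earlier intervals.

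The lists of mature macrophage functions had counts too small to be set apart from each other, beside the 1.86% of all genes. Of 28 granule, lysosome and oxidase genes 2 had one (7.14%, 1.98 to 22.6), Srgn, which encodes the granule proteoglycan serglycin (sites of 300 and 1000 bp, 1 RUNX word), and Ctsc, which encodes cathepsin C (300 and 200 bp, 180167 bp upstream). Of 44 genes of innate sensing and inflammation 2 had one (4.55%, 1.26 to 15.1). The member of Cd300a, an inhibitory receptor, was wide in both lists (1200 and 1100 bp, chr11:114907614-114908166) and held 2 RUNX and 2 C/EBP words. The member of Tlr4, the lipopolysaccharide receptor, lay in an intron 1260 bp downstream of the TSS (chr4:66828507-66829114) with sites of 300 bp in both lists, and an HE interval covered all 608 bp. Of 60 surface proteins and integrins 1 had a member (1.67%, 0.295 to 8.86), which is near the share of all genes, and 90.0% were nearest to a MAC-only region.

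The lists of other lineages gave from 0 to 2 genes, again beside the 1.86% of all genes. Of 25 megakaryocyte and platelet genes 2 had a member (8.0%, 2.22 to 25.0), Itgb3, which is also the 1 surface protein above (sites of 500 and 300 bp), and Vwf, which encodes von Willebrand factor (1000 and 1100 bp, chr6:125540507-125541149, 12120 bp upstream). Of 31 endothelial genes 1 had a member (3.23%), Ets2 (600 and 900 bp). None of 25 erythroid genes did, which allows a share of up to 13.3%, although 36.0% of them were nearest to an HP-only region. None of 29 mesodermal and cardiac genes did, which allows up to 11.7%. Both limits lie above the share of all genes, so a count of 0 does not set these lists apart.

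Chst11, which encodes a chondroitin sulfotransferase, was nearest to 14 merged regions, of which 7 were MAC only and 3 members. These members lay at 26951 and 22776 bp upstream (chr10:82958231-82958860 and chr10:82962431-82963010) and 19224 bp downstream of the TSS (chr10:83004411-83005030). Their HP sites were 600, 700 and 500 bp and their MAC sites 1000, 1000 and 800 bp wide. The nearest earlier windows were 26152, 22002 and 8896 bp away. The MAC site was the wider in all 3, and an AP-1 word stood in the 2 upstream members. Beside the wide members of Arhgap25, Vwf and Cd300a, a member wide in both lists was at Epha4, an ephrin receptor (900 and 900 bp, 216151 bp from the TSS, 1 PU.1 and 1 GATA word). No earlier interval touched these 4 members.

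Genes nearest to members had a MAC-only region more often than genes in general, whereas the nearest region to a member was not more often MAC only than over all regions. Of the 390 genes nearest to a member 304 (77.9%) were also nearest to a MAC-only region, beside 40.2% of all genes, and 96 (24.6%) to an HP-only region, beside 6.52%. For the 923 genes nearest to a region of HE, HP and MAC the shares were 79.8% and 19.4%, and of the 1369 genes nearest to an HP-only region 69.0% had a MAC-only one. All 27 listed genes with a member had a MAC-only region, between 1 and 24 of them. The nearest other merged region was MAC only for 118 members (28.9%, 24.7 to 33.4), HE only for 96 (23.5%, 19.6 to 27.8) and open in all 5 stages for 52 (12.7%). For HP-only regions these were 22.8%, 20.9% and 12.8%, for MAC-only regions 42.2%, 14.8% and 12.1%, and over all regions 31.5%, 17.7% and 11.9%. A region of any pattern with MAC was nearest to 52.6% of members and to 53.9% of all regions. The median gap to the nearest region was 3033 bp for members, 3921 bp for HP-only, 4900 bp for MAC-only and 5101 bp for all regions. Another member was nearest in 5 cases. By chromosome, members were from 0.236% (chromosome 18) to 0.831% (chromosome 8) of the regions on the autosomes, and 3 were on chromosome X.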

How the data were processed

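DNaseI-seq of 5 sorted populations was used, with 1 list per stage. The authors size-selected 50 to 300 bp fragments of DNase I digested cells, trimmed reads with CutAdapt, aligned them to mm10 with Bowtie, discarded reads that aligned to several places or (by Picard) were duplicates, and ran DFilter on bins of 100 bp to call sites. The versions are not given in the sources used here, and the processing notes also name HOMER. The deposited lists hold only the start and end of each site, with no signal, so lists could be made stricter by width only, and site middles stood for summits. All interval lengths were multiples of 100 bp.

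Merging, annotation by curated RefSeq mRNAs of GRCm38.p6 (25999 TSS positions, whose chromosomes are those of mm10), and word searches on both strands of the central 500 bp were done in Python 3.11.15 with numpy 2.4.6, and were tested on simulated sites and words. There were 25 words or word groups and 11 gene lists. The IRF word can share bases with the PU.1 word. The 4 mitochondrial regions were left out of annotation. Members, words and gene lists were chosen with earlier results of these data known.

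Named regions were those nearest to a list gene (at most 30, by distance), the 10 nearest to a TSS, those of genes with 3 members or more, and the 5 with the largest smaller width. Sequences were taken first from those with most kinds of word in the central 200 bp. Some items that these rules select are not reported here. With 1 list per stage no test between stages could be made. Alternatives were other overlaps, deposited intervals, stricter lists, other TSS and CpG definitions, and other word windows.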

Additional observations from a re-analysis of the deposited data

How the results depend on the processing

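No paired analysis was possible because there was 1 list per stage and no test. The number of members was 453 when windows were merged at 250 bp (381 of the 409 kept), 384 at 1 bp (373 kept), 343 with deposited intervals (329 kept), 484 with every list cut to its widest sites, as many as HP has (188 kept) and 328 without members touched by an earlier interval. It fell to 89, with 24 of the 409 kept, when sites narrower than their list's median were left out, so which regions are members rests on the narrow sites. The promoter share of 13.2% moved to 5.79% in untouched members, 17.9% with merging at 250 bp, 24.7% with the TSS of all transcripts and 9.29% within 1 kb. The CpG-rich share of 6.6% moved to 1.83% in untouched members and 10.4% with merging at 250 bp. The RUNX share moved to 41.5% in untouched members. In the central 200 bp the shares were 7.09% (PU.1), 24.0% (RUNX), 4.4% (C/EBP), 21.3% (AP-1) and 13.0% (GATA). Backwards words in the central 500 bp gave 5.87%, 15.2%, 1.96%, 8.56% and 18.3%, in the same order. Listed genes with a member numbered 27 (7.09%, beside 1.86% of all genes) by the nearest TSS and 41 (10.8%, beside 6.49%) when any TSS within 100 kb counted. The causes were not tested, except that a shorter window holds fewer words. The distal share and the other shares of these 5 words moved by less than their counting error, and other words were not recomputed under every alternative. Depth is unknown.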
